A study of Homo sapiens with 17 samples.

Results

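ILT3 (gene LILRB4), ALCAM (CD166) and CD6 are the inhibitory receptor whose soluble form was given to the cells, a surface protein reported as its ligand, and the T cell receptor for that same protein. They were found by matching their symbols in the deposited expression table, where each has 1 line among 25548 gene symbols. 2 of the 3, ALCAM and CD6, were among the 12015 genes with a mean of at least 1 FPKM (sequenced fragments for a gene, scaled by gene length and by library depth) and could be tested. LILRB4 was listed at 0 throughout and has no test.

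ILT3 is a receptor of myeloid and dendritic cells that carries inhibitory tyrosine motifs in its cytoplasmic tail, through which receptors of this kind recruit tyrosine phosphatases. ALCAM is an adhesion molecule of the immunoglobulin superfamily that binds itself on neighbouring cells and binds CD6. CD6 is a scavenger receptor family protein of T cells, related to CD5, whose phosphorylated tail gathers adaptors such as SLP-76 at the contact with another cell.

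The cells were Jurkat, an established human line of T cell leukaemia, a single line with no antigen-presenting partner cell. Polyadenylated RNA was sequenced after exposure to ILT3.Fc, soluble ILT3 joined to an antibody Fc portion, at 25, 12.5 or 0 µg/ml for 6, 12 or 24 h; the untreated groups received none, and no Fc control is among these groups. There were 17 libraries in 9 groups of dose and time, 2 libraries in each of 8 groups and 1 in the untreated 12 h group. The labels do not say whether duplicates came from separate cultures, so the p-values cover only how far these libraries vary, which may be technical.

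The libraries held T cell transcripts throughout: all 9 T cell markers were detected, with a summed level of 1532 to 1688 FPKM at 25 µg/ml, 1588 to 1738 FPKM at 12.5 µg/ml and 1539 to 1633 FPKM in untreated cells. The 13 myeloid and dendritic markers summed to 26.3 to 30.9 FPKM, of which CD1C made 23.1 to 27.7 FPKM and CD68 1.80 to 3.22 FPKM. CLEC4C was listed at 0 in all 17 libraries, and SPI1, MPO and CSF1R were at most 0.0374 FPKM. FCER1G, TYROBP and CD14 reached 0.918, 0.526 and 0.413 FPKM, and CD33, LYZ, ITGAM and CD163 at most 0.2445 FPKM. The B cell marker MS4A1 was at most 0.058 FPKM while CD79A stood at 33.4 to 48.1 FPKM, and the 6 stromal and epithelial markers summed to at most 0.493 FPKM. Lane 4 held the 24 h libraries and the first replicate of every 6 h group, and lane 5 held the rest. Relative depth, read from the smallest steps of low values, was at least 0.671 of the deepest library; the absolute depth is unknown.

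The transcripts of ALCAM and CD6 differ in base composition, a property that several libraries also differed in. The ALCAM transcript has 39.6% G and C over 4701 bases and the CD6 transcript 62.0% over 3252 bases, against a median of 48.5% for tested genes. ALCAM has more G and C than 13.9% of tested genes, and CD6 more than 90.5%. The middle 120 bases of the longest wholly coding exon of each gene show this contrast, with G and C in capitals. The ALCAM stretch is part of exon 3 of 16 at chr3:105524339-105524458 (GRCh38, GENCODE v29, plus strand), with G or C at 47 bases. The CD6 stretch is part of exon 3 of 13 at chr11:61007675-61007794 (same build, plus strand), with G or C at 92 bases.
ALCAM: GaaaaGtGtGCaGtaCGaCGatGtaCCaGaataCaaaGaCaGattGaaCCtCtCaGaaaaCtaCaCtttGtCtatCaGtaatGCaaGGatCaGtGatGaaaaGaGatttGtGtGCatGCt
CD6: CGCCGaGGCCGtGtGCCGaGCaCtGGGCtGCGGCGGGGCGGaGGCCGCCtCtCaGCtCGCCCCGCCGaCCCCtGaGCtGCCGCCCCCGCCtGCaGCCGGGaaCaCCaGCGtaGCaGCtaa

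The ILT3 transcript was not seen in these cells at any dose or time. LILRB4 was listed at 0 FPKM in 17 of 17 libraries. An exact 0 in a table without counts can be a failed estimate, and 5290 symbols (20.7%) were listed at 0 in every library; the 26 widely expressed genes checked were all above 0, the lowest being TBP, a general transcription factor, at 24.0 FPKM or more. With no counts deposited, no upper limit can be set on the ILT3 level.

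The relatives of ILT3 were also at or near 0, except LAIR1. Of 13 genes of the leukocyte immunoglobulin-like receptor (LILR) and LAIR family, 5 were listed at 0 in every library: LILRB4, LILRB5, LILRA1, LILRA2 and LILRA5. The inhibitory receptors LILRB1, LILRB2 and LILRB3 reached at most 0.1004, 0.0092 and 0.175 FPKM. LILRB2 was above 0 in a single library, as was the soluble form LILRA3, which reached 0.0172 FPKM. LILRA4 and LILRA6, of the activating branch, reached 0.0962 and 0.132 FPKM, and the secreted LAIR2 0.115 FPKM. These genes are close copies of each other, so a small value may be shared among them. LAIR1, an inhibitory collagen receptor of lymphocytes and myeloid cells, stood at 20.7 to 24.9 FPKM (median 23.1). LAIR1 differed by -0.0088 between 25 and 0 µg/ml over all times (log2; SE 0.032, limma adjusted p = 0.896).

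ALCAM was the only one of 4 reported ILT3 ligands above 1 FPKM. Its median was 4.93 FPKM, within a range of 4.27 to 5.55 FPKM over the 17 libraries. Apolipoprotein E (APOE), fibronectin (FN1) and the CNTF receptor alpha chain (CNTFR) had medians of 0.346, 0.127 and 0.113 FPKM. CD6 had a median of 8.70 FPKM, within 7.22 to 9.35 FPKM. In mean level ALCAM stood above 22.1% and CD6 above 35.0% of tested genes. CDCP1, the other known CD6 ligand, was at most 0.103 FPKM, and the ALCAM relatives MCAM, BCAM, L1CAM, NCAM1, CADM1 and NRCAM all had medians under 1 FPKM, CADM1 being highest at 0.979 FPKM.

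**Figure D1:**
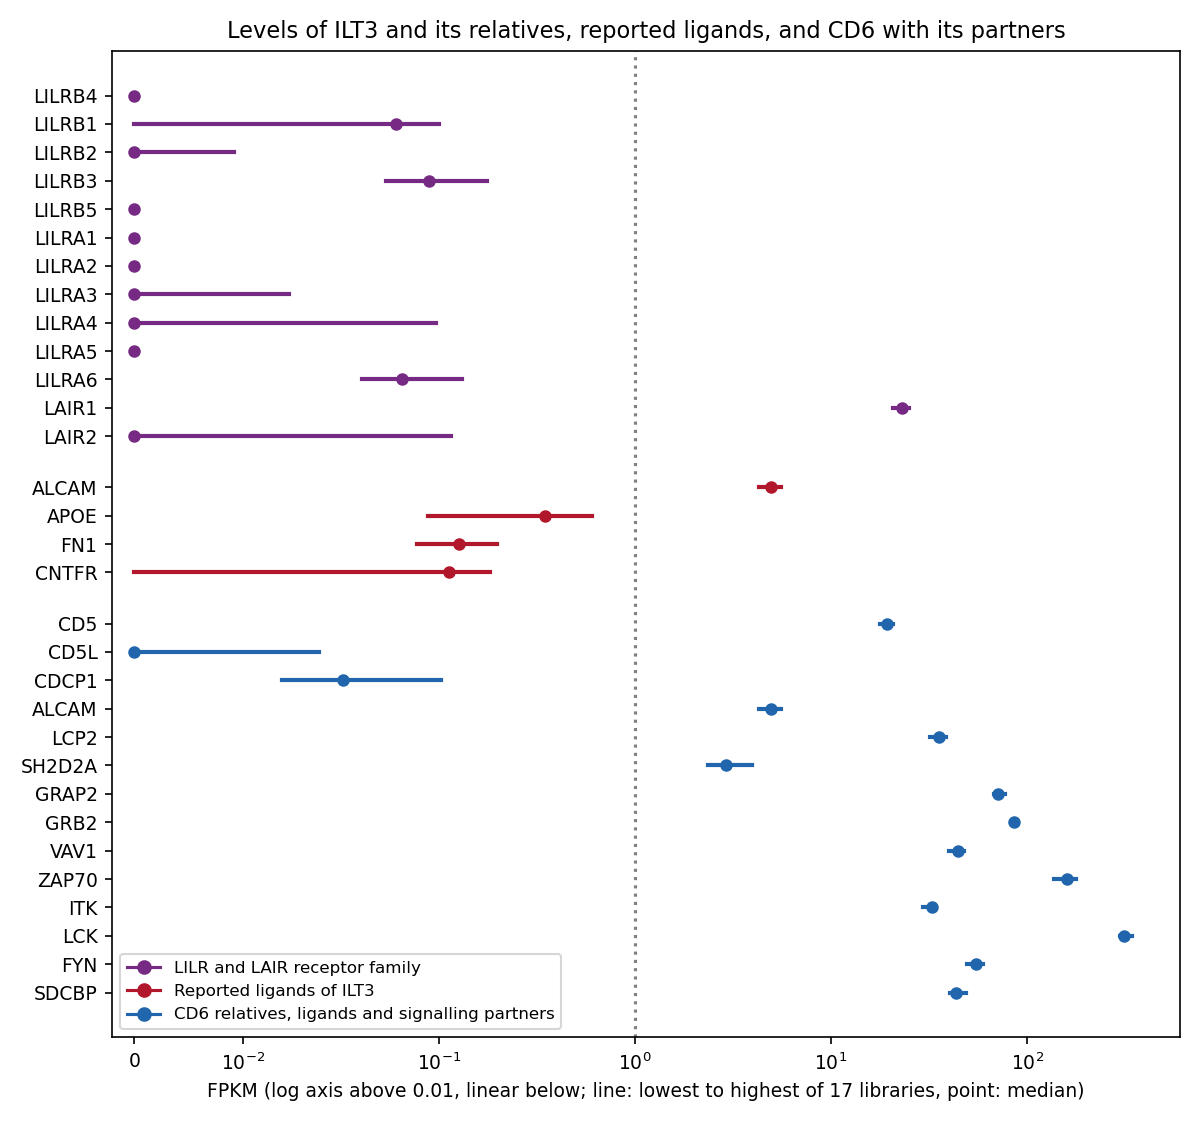
Lowest, median and highest FPKM over 17 libraries (log axis above 0.01 FPKM, linear below it, dotted line at 1 FPKM) for the ILT3 receptor family, the reported ILT3 ligands, and the relatives, ligands and partners of CD6. LILRB4 lies at 0, LAIR1 alone of its family lies above 1 FPKM, and ALCAM has a median of 4.93 FPKM.

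ALCAM did not pass any of the tests of dose that were made with all libraries fitted. Against untreated cells, 25 µg/ml was tested at each time, and 12.5 µg/ml only at 24 h and over all times. At 6 h it stood at 5.15 and 5.38 FPKM in untreated cells, 4.93 and 4.97 FPKM at 12.5 µg/ml, and 5.55 and 5.29 FPKM at 25 µg/ml. At 12 h it stood at 4.54 FPKM in the single untreated library, 5.02 and 4.85 FPKM at 12.5 µg/ml, and 5.18 and 4.79 FPKM at 25 µg/ml. At 24 h it stood at 4.32 and 5.39 FPKM in untreated cells, 4.87 and 4.92 FPKM at 12.5 µg/ml, and 4.44 and 4.27 FPKM at 25 µg/ml. At 24 h the untreated pair lay further apart than any other ALCAM pair (0.27 on the log2 scale, against 0.01 to 0.09 for the other 7), and their range held 3 of the 4 treated libraries, with replicate 2 at 25 µg/ml just below it. With the 3 times pooled, the lower dose gave a narrow band, 4.93 ± 0.0642 FPKM over its 6 libraries. It was 4.92 ± 0.504 FPKM at 25 µg/ml (n = 6) and 4.96 ± 0.498 FPKM in untreated cells (SD, n = 5). The 3 doses thus shared nearly the same pooled mean, but these SDs include differences between times. At 25 µg/ml the group means were 5.42, 4.98 and 4.36 FPKM at 6, 12 and 24 h.

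Tests were made with limma on log2(FPKM + 1), a scale that understates changes of low genes, with adjustment over all tested genes and a call at an adjusted p under 0.05. Between 25 and 0 µg/ml over all times ALCAM differed by 0.0083 (SE 0.048, 95% interval -0.10 to 0.11, adjusted p = 0.938), where 9.47% of tested genes were called. Alone, the lane 4 libraries gave -0.015 and the lane 5 libraries 0.045. The difference was 0.04 at 6 h (adjusted p = 0.922; 0.225% of genes called), 0.11 at 12 h (adjusted p = 0.858; 0.0499% called) and -0.12 at 24 h (SE 0.078, interval -0.29 to 0.05, adjusted p = 0.309; 16.5% called). The 24 h value rested on the discordant untreated pair: it was -0.26 (adjusted p = 0.0474, past the threshold) without untreated replicate 1 and 0.01 (adjusted p = 0.954) without untreated replicate 2. At 12.5 µg/ml, a comparison that shares its untreated libraries with the 25 µg/ml one, ALCAM differed by 0.01 over all times (adjusted p = 0.943; 0.283% called).

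CD6 at 24 h was higher at 25 µg/ml than in untreated cells, by a small margin. At 24 h it stood at 7.96 and 7.22 FPKM in untreated cells, 8.44 and 8.17 FPKM at 12.5 µg/ml, and 8.54 and 9.01 FPKM at 25 µg/ml. As deposited, the groups did not overlap and the doses were in order. How many of all tested genes do the same was not counted, so this does not set CD6 apart. At 6 h it stood at 8.48 and 9.03 FPKM in untreated cells, 9.12 and 9.35 FPKM at 12.5 µg/ml, and 8.96 and 8.85 FPKM at 25 µg/ml, with both 25 µg/ml libraries inside the untreated range. At 12 h it stood at 8.70 FPKM in the untreated library, 8.80 and 8.77 FPKM at 12.5 µg/ml, and 8.68 and 8.24 FPKM at 25 µg/ml. The untreated 24 h libraries were the lowest of all 17.

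**Figure D2:**
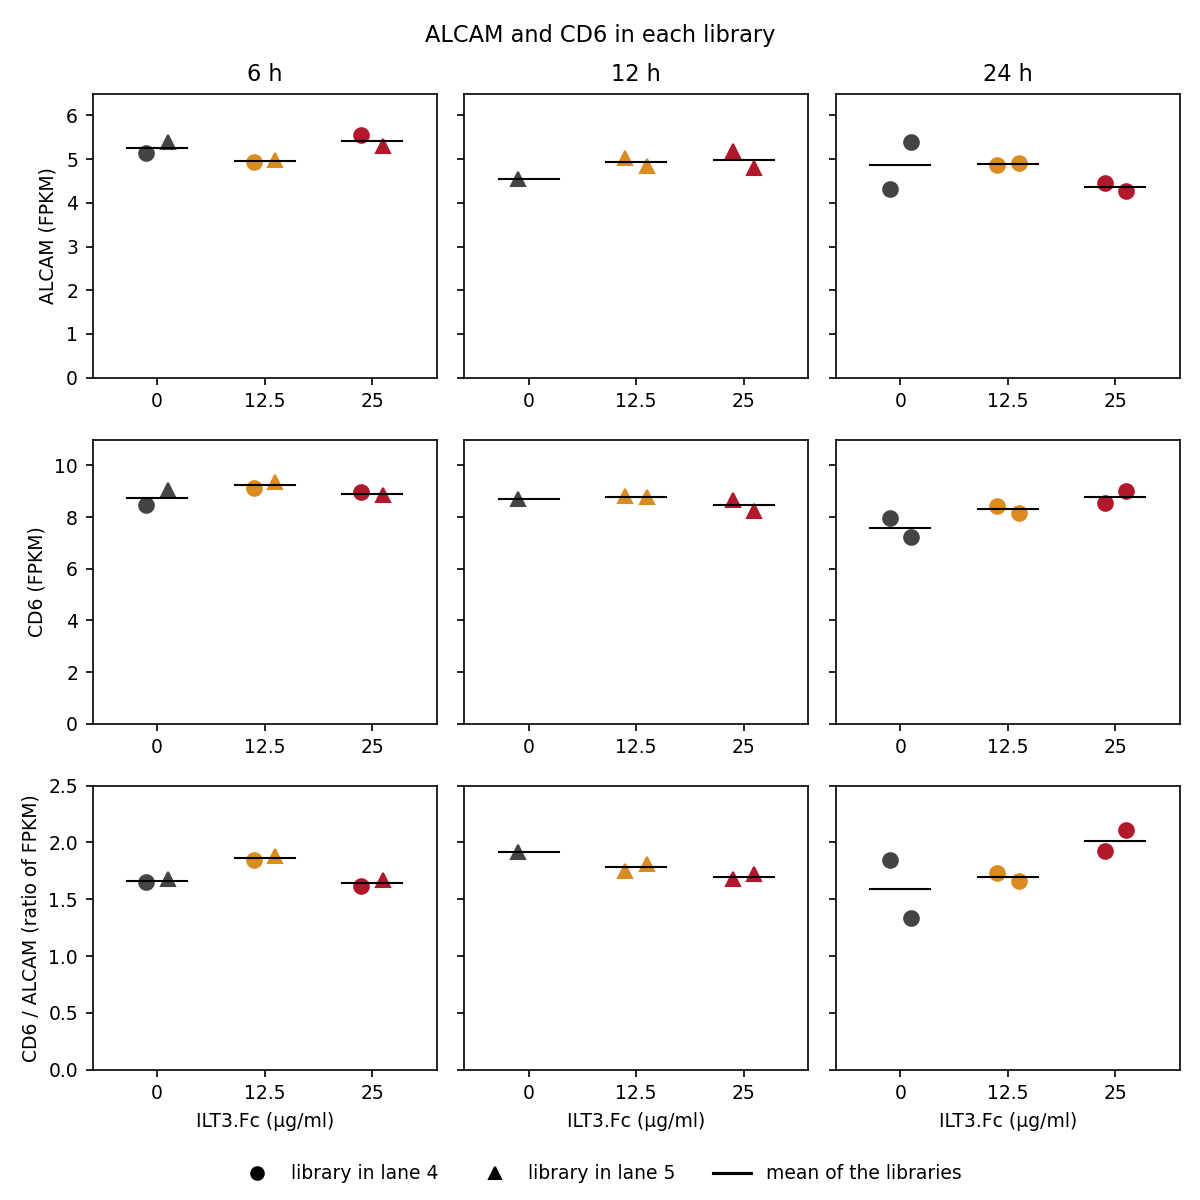
FPKM of ALCAM and CD6 and their ratio in each library (points, shape by sequencing lane) by ILT3.Fc dose at 6, 12 and 24 h, with lines at group means. ALCAM in untreated cells at 24 h stood at 4.32 and 5.39 FPKM. CD6 at 24 h, as deposited, ran in order of dose, a pattern not counted over all tested genes.

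CD6 at 24 h rose by 0.19 (log2; SE 0.054, 95% interval 0.07 to 0.31, limma adjusted p = 0.0382) between 25 and 0 µg/ml, both groups within lane 4. Of all tested genes 16.5% were called in this comparison, 10.7% as higher, so a call alone does not set CD6 apart. The call was lost without untreated replicate 2 (0.13, adjusted p = 0.265) and without 25 µg/ml replicate 2 (0.15, adjusted p = 0.217); in 8 further cases, leaving out a library of another group moved the adjusted p to between 0.0507 and 0.0570. With the replicate number as a block the adjusted p was 0.0503. Median centring gave 0.15 (adjusted p = 0.0938) and quantile normalization 0.12 (adjusted p = 0.134).

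CD6 did not pass the test in the other dose comparisons. Over all times the difference between 25 and 0 µg/ml was 0.06 (SE 0.034, interval -0.02 to 0.13, limma adjusted p = 0.310), with 0.13 in lane 4 alone and -0.03 in lane 5 alone. It was 0.02 at 6 h (adjusted p = 0.928) and -0.04 at 12 h (adjusted p = 0.955). The effect at 24 h less the effect at 6 h was 0.17 (SE 0.077, adjusted p = 0.241; 3.3% of genes called), so a difference between the times was not shown. At 12.5 µg/ml CD6 differed from untreated cells by 0.07 over all times (adjusted p = 0.517) and by 0.12 at 24 h (adjusted p = 0.528; 0.117% called). A linear dose trend over all times gave 0.07 for 25 µg/ml (adjusted p = 0.310; 9.36% called), and 25 against 12.5 µg/ml gave -0.0083 (adjusted p = 0.931; 0.283% called).

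Library base composition differed between the 25 µg/ml and untreated libraries at 24 h, the groups of the CD6 call. The deviation of a library from the mean of all 17 was set against GC content across genes. The Spearman correlation across genes was 0.13 and 0.57 in the 25 µg/ml 24 h libraries, against 0.03 and -0.37 in the untreated 24 h libraries. It was 0.15 and -0.29 at 12.5 µg/ml and 24 h. The highest and lowest of all 17 libraries were thus the second replicates of the groups compared. Dose and base composition cannot be told apart between these groups, and their parts in the CD6 difference were not tested. After each library was corrected for GC content and gene length, CD6 at 24 h stood at 8.12 and 7.67 FPKM in untreated cells, 8.41 and 8.48 FPKM at 12.5 µg/ml, and 8.33 and 7.93 FPKM at 25 µg/ml. The untreated and 25 µg/ml pairs overlapped and both 12.5 µg/ml libraries were the highest, so the dose order was lost. The difference between 25 and 0 µg/ml was 0.04 (SE 0.052, interval -0.08 to 0.15, limma adjusted p = 0.662), while 19.2% of 11147 genes were called. ALCAM at 24 h moved little, to -0.10 (adjusted p = 0.350).

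**Figure D3:**
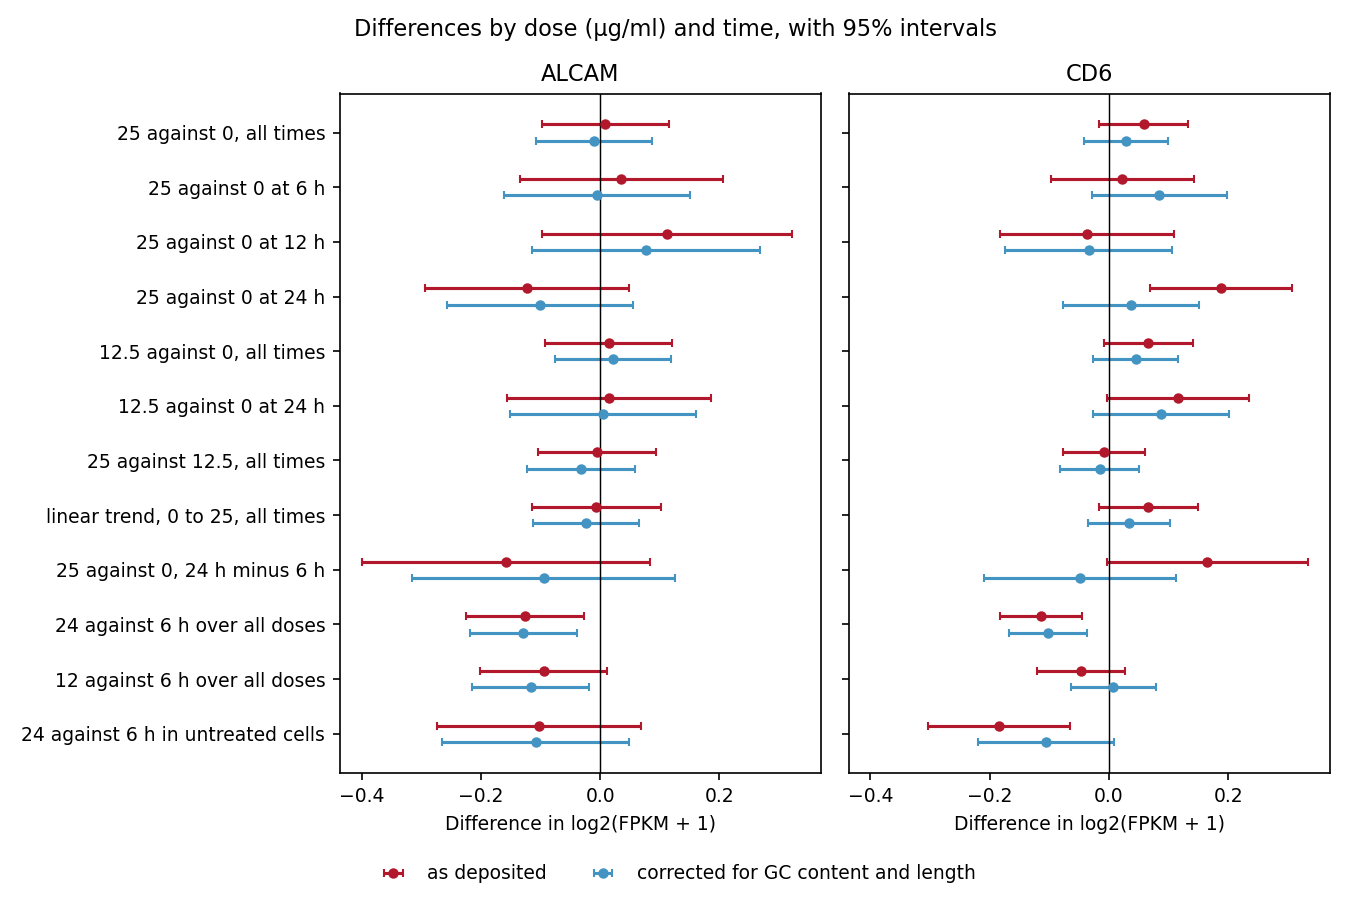
Differences in log2(FPKM + 1) of ALCAM and CD6 for each dose and time comparison (points, with 95% intervals), as deposited and with each library corrected for base content and length. CD6 at 24 h was 0.19 as deposited and 0.04 after correction; its difference between 24 and 6 h was -0.11 as deposited and -0.10 after correction.

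Across the 17 libraries the correlation with the library's GC deviation was negative for ALCAM and positive for CD6, and neither passed adjustment. The GC deviation was itself computed across the tested genes, ALCAM and CD6 among them. Genes of like GC content with the same sign were not counted, so these signs do not set ALCAM or CD6 apart. For ALCAM Pearson's r was -0.54 (permutation p = 0.0249, adjusted over 5 relations p = 0.125) and Spearman's rho -0.52 (permutation p = 0.0353, adjusted p = 0.177), with r of -0.41 without the 2 libraries farthest from the median deviation. Within lanes 4 and 5 the ALCAM r was -0.65 and -0.0049. For CD6 r was 0.41 (permutation p = 0.0980, adjusted p = 0.245) and rho 0.35 (permutation p = 0.167, adjusted p = 0.418), with 0.28 without the 2 farthest libraries and 0.66 and 0.58 within the lanes. ALCAM and CD6 themselves showed no relation across libraries (r = 0.015, permutation p = 0.955; rho = 0.19, permutation p = 0.459; adjusted p = 0.955 and 0.589). Without the 2 farthest libraries their r was 0.17, and within lanes 4 and 5 it was -0.18 and 0.39.

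**Figure D4:**
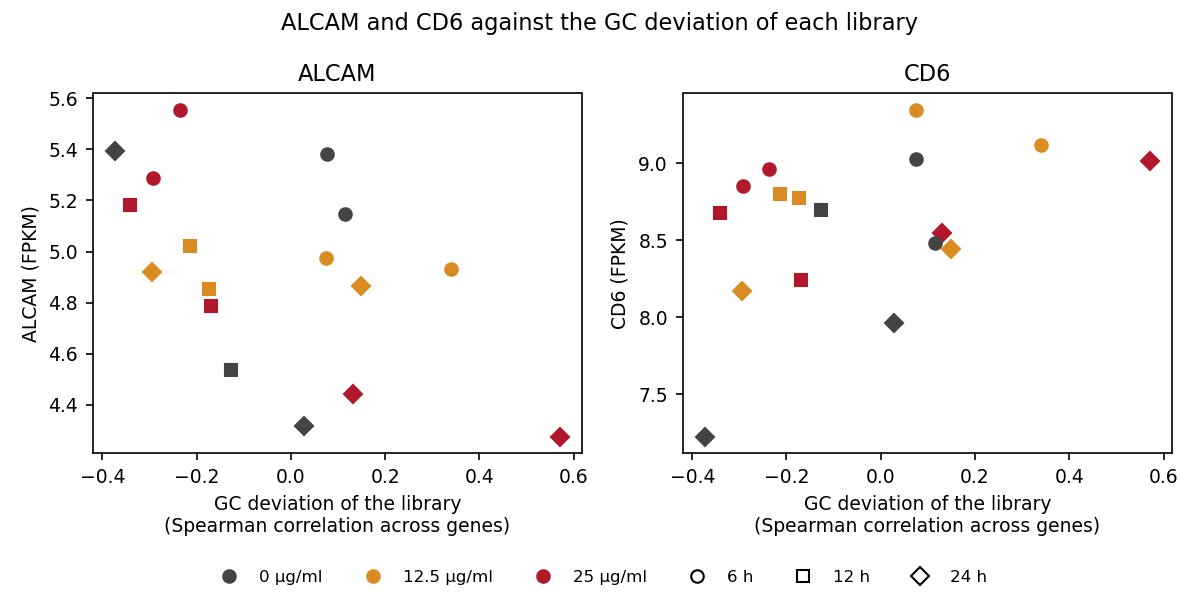
FPKM of ALCAM and CD6 (vertical axes, not starting at 0) against the GC deviation of each of 17 libraries, coloured by dose and shaped by time. The extremes on the horizontal axis are the second 24 h replicates at 25 µg/ml (0.57) and in untreated cells (-0.37); ALCAM gave r = -0.54 and CD6 r = 0.41.

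The ratio of CD6 to ALCAM within a library does not depend on that library's overall scale, though the 2 transcripts differ in base composition. It ranged from 1.61 to 2.11 at 25 µg/ml (median 1.70) and from 1.34 to 1.92 in untreated cells (median 1.68). The mean log2 difference over times was 0.055 (exact permutation test within times, two-sided, 108 arrangements, p = 0.741). At 12.5 µg/ml the ratio was 1.66 to 1.88 (median 1.78) and the difference from untreated cells 0.056 (exact p = 0.583). At 24 h it was 1.92 and 2.11 at 25 µg/ml, against 1.84 and 1.34 in untreated cells, the lowest of these being replicate 2. On the log2 scale these were 0.94 and 1.08, against 0.88 and 0.42. After the GC and length correction they were 0.91 and 0.83, against 0.88 and 0.53. Without the 24 h libraries the 25 µg/ml difference was -0.096 (exact p = 0.111). That set has too few arrangements for an exact p under 0.05, so its p cannot decide. Without untreated 24 h replicate 2 the difference was -0.021. So the ratio changed sign with the libraries used and was not shown to differ by dose.

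Averaged over doses, CD6 was lower at 24 h than at 6 h. The ALCAM difference in the same direction fell short of the threshold. CD6 ranged from 7.22 to 9.01 FPKM at 24 h (median 8.30) and from 8.48 to 9.35 FPKM at 6 h (median 8.997). From 6 to 24 h its group mean went from 8.76 to 7.59 FPKM in untreated cells and from 9.23 to 8.30 FPKM at 12.5 µg/ml. At 25 µg/ml it went only from 8.91 to 8.78 FPKM. The change with time was not shown to differ between 25 and 0 µg/ml (0.17, limma adjusted p = 0.241). CD6 fell by 0.11 over all doses (SE 0.031, limma adjusted p = 0.0222), where 25.2% of genes were called, 13.4% as lower and 11.8% as higher. The value was -0.10 within lane 4 alone (adjusted p = 0.200), -0.10 with lane as a covariate (adjusted p = 0.104) and -0.10 with the GC and length correction (adjusted p = 0.0205). The call was lost in 5 of 17 cases when a library was left out, with adjusted p up to 0.0677; those libraries were replicate 1 at 25 µg/ml, replicate 2 at 12.5 µg/ml and replicate 2 untreated at 24 h, and replicate 1 at 25 µg/ml and replicate 2 untreated at 6 h.

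ALCAM ranged from 4.27 to 5.39 FPKM at 24 h (median 4.65) and from 4.93 to 5.55 FPKM at 6 h (median 5.22). From 6 to 24 h its group mean went from 5.26 to 4.86 FPKM in untreated cells and from 4.95 to 4.89 FPKM at 12.5 µg/ml. At 25 µg/ml it went from 5.42 to 4.36 FPKM. The change with time was not shown to differ between 25 and 0 µg/ml (-0.16, limma adjusted p = 0.435). Over all doses the ALCAM difference between 24 and 6 h was -0.13 (SE 0.045, interval -0.22 to -0.03, adjusted p = 0.0612), and -0.13 within lane 4 (adjusted p = 0.261). It passed the threshold with the GC and length correction (-0.13, adjusted p = 0.03002) and without untreated 24 h replicate 2 (-0.17, adjusted p = 0.00889). Between 12 and 6 h ALCAM differed by -0.09 (adjusted p = 0.299) and CD6 by -0.05 (adjusted p = 0.470), with 3.03% of genes called. In untreated cells alone, between 24 and 6 h, CD6 differed by -0.18 (adjusted p = 0.0995) and ALCAM by -0.10 (adjusted p = 0.527), with 2.33% of genes called.

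The groups of dose and time ordered ALCAM from 5.42 ± 0.188 FPKM (25 µg/ml, 6 h) and 5.26 ± 0.168 FPKM (untreated, 6 h) down to 4.36 ± 0.119 FPKM at 25 µg/ml and 24 h (SD, n = 2 each). The other 6 group means lay between 4.54 and 4.98 FPKM; of these the untreated 12 h value is 1 library, and neighbours in the order differed by less than the spread of the widest group (SD 0.760 FPKM, untreated 24 h). CD6 ran from 9.23 ± 0.160 FPKM (12.5 µg/ml, 6 h) and 8.91 ± 0.0798 FPKM (25 µg/ml, 6 h) down to 7.59 ± 0.522 FPKM in untreated cells at 24 h. The 25 µg/ml 24 h group stood at 8.78 ± 0.332 FPKM, beside the untreated 6 h group at 8.76 ± 0.388 FPKM, which it did not differ from beyond their spread.

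Among phosphatases that inhibitory receptors recruit, SHIP1 rose. INPP5D, which encodes this lipid phosphatase of the PI3K pathway, stood at 7.36 and 8.73 FPKM at 25 µg/ml and 24 h, against 5.95 and 5.69 FPKM in untreated cells. Both treated libraries lay above both untreated ones, a separation not counted over all tested genes. It rose by 0.28 over all times (limma adjusted p = 0.00331; 0.30 in lane 4 and 0.20 in lane 5 alone, adjusted p = 0.175 and 0.164) and by 0.40 at 24 h (adjusted p = 0.00406; 0.29, adjusted p = 0.00249, after the GC and length correction). Without the 24 h libraries it stood at 0.22 (adjusted p = 0.0928). PTPN6 (SHP-1) and PTPN11 (SHP-2), the tyrosine phosphatases, differed by -0.0041 and -0.03 over all times (adjusted p = 0.967 and 0.690). The list thus had 1 of 3 higher, where 5.47% of all tested genes were higher over all times and 10.7% at 24 h, with a median of -0.0041 over all times, against 0.02 for all tested genes.

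Of 12 tested relatives, ligands and partners of CD6, 2 rose and none fell with 25 µg/ml over all times, and 4 rose and none fell at 24 h. Of all tested genes 5.47% rose and 4% fell over all times, and 10.7% rose and 5.76% fell at 24 h. The list median was 0.02 over all times and 0.09 at 24 h, against 0.02 and 0.04 for all tested genes. At 24 h the 4 were CD5, the closest relative of CD6; GRAP2, the adaptor GADS that binds SLP-76; VAV1, a guanine nucleotide exchange factor; and SDCBP, the scaffold syntenin-1 reported to bind the CD6 tail. CD5 stood at 20.8 and 20.7 FPKM at 25 µg/ml, against 17.7 and 17.9 FPKM in untreated cells, and rose by 0.21 (limma adjusted p = 0.0109). After the GC and length correction CD5 stood at 0.09 (adjusted p = 0.205), VAV1 at 0.07 (adjusted p = 0.118; 0.18, adjusted p = 0.0338, as deposited) and GRAP2 at 0.09 (adjusted p = 0.111; 0.15, adjusted p = 0.0184, as deposited). SDCBP was 0.22 (adjusted p = 0.0117), with 0.19 (adjusted p = 0.0134) as deposited and 0.15 (adjusted p = 0.0527) under median centring. The correction also brought calls that the deposited values did not give. At 24 h GRB2, an adaptor of receptor signalling, stood at -0.11 (adjusted p = 0.0379; -0.04, adjusted p = 0.387, as deposited), and the kinase FYN at -0.20 (adjusted p = 0.0306; -0.16, adjusted p = 0.0740, as deposited). With the correction 1 of the 12 was thus higher and 2 lower at 24 h, where 8.6% and 10.6% of 11147 genes were. CD5 and VAV1 transcripts hold 57.8% and 56.8% G and C, and SDCBP 39.2%.

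SDCBP and GRAP2 were the members that passed over all times, at 0.11 (limma adjusted p = 0.0278) and 0.09 (adjusted p = 0.0303), and each lost its call in 7 of 17 cases with a library left out. Lanes 4 and 5 alone gave 0.12 and 0.04 for SDCBP and 0.07 and 0.06 for GRAP2, none of them called. After the GC and length correction neither passed over all times (SDCBP 0.09, adjusted p = 0.0548; GRAP2 0.06, adjusted p = 0.0750), while VAV1 rose by 0.07 (adjusted p = 0.0263) and GRB2 fell by 0.06 (adjusted p = 0.0498). The corrected values thus had 1 of 12 higher and 1 lower over all times, where 7.84% of genes were higher and 10% lower. The signalling kinases LCK and ZAP70 and the adaptor LCP2 (SLP-76) did not pass, at 0.0035, 0.01 and 0.03 over all times. With time, between 24 and 6 h, 1 of the 12 was higher and 2 were lower, where 11.8% and 13.4% of all tested genes were. So these calls do not set the list apart. After the GC and length correction 3 were higher and 4 lower, where 36.8% of 11147 genes were called in either direction. As deposited, LCP2 fell by 0.16 (adjusted p = 0.00415) and ZAP70 fell by 0.16 (adjusted p = 0.0278), while SDCBP rose by 0.10 (adjusted p = 0.0115). Within lane 4 alone these were -0.15 (adjusted p = 0.0486), -0.16 (adjusted p = 0.173) and 0.08 (adjusted p = 0.141).

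Of 7 tested ALCAM partners and shedding factors, CD6 itself among them, 1 rose over all times with 25 µg/ml (SDCBP, whose call was lost after the correction) and none fell. The shares over all tested genes were 5.47% higher and 4% lower over all times, and 10.7% and 5.76% at 24 h. At 24 h CD6 (not after the correction) and SDCBP rose and SH3GL3, the endocytic adaptor endophilin-A3 reported in ALCAM uptake, fell by 0.33 (limma adjusted p = 0.0334; -0.31, adjusted p = 0.0168, after the GC and length correction). The SH3GL3 call was lost in 4 of 13 other settings, lane 4 alone among them (-0.33, adjusted p = 0.0694), and in 3 of 17 cases with a library left out (adjusted p up to 0.226): either untreated 24 h replicate, or replicate 2 at 25 µg/ml and 24 h. The list median was 0.03 over all times and 0.06 at 24 h, against 0.02 and 0.04 for all tested genes. ADAM17, the protease that sheds ALCAM, differed by 0.01 over all times (adjusted p = 0.875), and the membrane linkers EZR and MSN by -0.03 and 0.03 (adjusted p = 0.469 and 0.553).

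Factors reported at the CD6 promoter showed 1 fall among 5 over all times and at 24 h, where 4% and 5.76% of all tested genes fell. CBFB, the partner subunit of RUNX proteins, fell by 0.13 over all times (limma adjusted p = 0.0260) and by 0.21 at 24 h (adjusted p = 0.0160; -0.19, adjusted p = 0.00246, after the correction). The call over all times was lost in 5 of 17 cases with a library left out, and lanes 4 and 5 alone gave -0.16 and -0.08, neither called. ETS1, RUNX1, RUNX2 and RUNX3 did not pass with dose. Between 24 and 6 h, where 25.2% of all tested genes were called, 3 of the 5 were: RUNX3 rose by 0.29 (adjusted p = 0.00170), while RUNX1 fell by 0.15 (adjusted p = 0.0282) and ETS1 fell by 0.10 (adjusted p = 0.0172). Within lane 4 alone RUNX3 stood at 0.28 (adjusted p = 0.0373), RUNX1 at -0.10 (adjusted p = 0.0526) and ETS1 at -0.08 (adjusted p = 0.123).

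Among 12 tested T cell contact receptors other than CD6, CD28 and CD48 rose and SPN fell with 25 µg/ml over all times, where 5.47% of all tested genes rose and 4% fell, and the list median was 0.05. CD28, the costimulatory receptor, stood at 34.6 and 32.5 FPKM at 25 µg/ml and 24 h, against 28.4 and 28.2 FPKM in untreated cells. CD28 rose by 0.14 over all times (limma adjusted p = 0.0103; 0.11 in each lane alone, adjusted p = 0.246 and 0.164) and by 0.24 at 24 h (adjusted p = 0.00576). SPN, the sialoglycoprotein CD43, stood at 45.0 and 48.1 FPKM at 25 µg/ml and 24 h, against 62.5 and 60.1 FPKM in untreated cells. SPN fell by 0.28 over all times (adjusted p = 7.61e-04; -0.28 and -0.22 in lanes 4 and 5 alone, adjusted p = 0.107 and 0.130) and by 0.39 at 24 h (adjusted p = 0.00124). CD48, a GPI-anchored adhesion protein, rose by 0.12 over all times (adjusted p = 0.0432) but lost its call in 11 of 17 cases with a library left out (0.12 and 0.10 in lanes 4 and 5 alone, not called). At 24 h the CD28 and SPN values after the GC and length correction were 0.24 (adjusted p = 5.22e-04) and -0.46 (adjusted p = 1.28e-05). As deposited 1 of the 12 was higher and 1 lower at 24 h, where 10.7% and 5.76% of all tested genes were. With the correction 3 were higher and 2 lower, where 8.6% and 10.6% of 11147 genes were. Those added were CD48 at 0.17 (adjusted p = 0.0128), the activating receptor CD226 at 0.17 (adjusted p = 0.0374) and the adhesion-related glycoprotein CD99 at -0.23 (adjusted p = 8.19e-04; -0.15, adjusted p = 0.0740, as deposited). Over all times the correction kept CD28, CD48 and SPN and added CD99 at -0.11 (adjusted p = 0.00433). There 7.84% of genes were higher and 10% lower.

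As deposited, CD28 alone of the 9 T cell markers passed for 25 against 0 µg/ml, at 24 h and over all times. Of all tested genes 16.5% were called at 24 h and 9.47% over all times. With the correction CD247, the CD3 zeta chain, also passed over all times (0.09, limma adjusted p = 0.0139), where 17.9% of genes were called. Of the markers of other cells, CD68 rose by 0.46 at 24 h (limma adjusted p = 0.0357), a lysosomal protein at 1.80 to 3.22 FPKM, and not over all times (0.13, adjusted p = 0.356); under median centring the 24 h adjusted p was 0.0554. CD1C and CD79A did not pass with dose, and the myeloid defining genes SPI1, CSF1R and MPO stayed at or near 0. The myeloid markers FCER1G, TYROBP and CD14 were higher, at most 0.918 FPKM.

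The genes whose levels followed ALCAM most closely over the 17 libraries were TAF1B (Pearson's r = 0.90), CD47 (0.88), OTUD6B (0.84), PITPNB (0.82) and PRKRIR (0.82). Those that followed CD6 were LY6G5B (0.88), HGS (0.87), CPXM1 (0.86), DNAJB2 (0.86) and UNK (0.85). They were the 5 highest of all tested genes for each, and the points share libraries, lanes and base composition. The ALCAM neighbours have 34.9% to 40.9% G and C, near the 39.6% of ALCAM, and the CD6 neighbours 51.7% to 63.4%, with CD6 at 62.0%.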

How the data were processed

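The authors deposited FPKM values of all genes in 1 table with 17 library columns. Alignment was with TopHat2 2.1.0 per the submitters' processing notes, with the quantifier, build and annotation of the table not given in the sources used here. The labels speak of 18 extracted samples, of which 17 were analysed here. Without counts no count test could be run, and depth is known only as a ratio between libraries, which limits the precision that can be stated for a single value.

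Of 25593 lines, 45 repeated symbols were reduced to the line of highest mean. A linear model was fitted with limma 3.58.1 (R 4.3.3) to log2(FPKM + 1) of 12015 genes averaging at least 1 FPKM. It had 1 mean per dose and time, 8 residual and 3.00 prior degrees of freedom, and a variance trend. The lone untreated 12 h library was taken to vary as the other groups do. Two-sided p-values were adjusted (Benjamini-Hochberg) across the 12015 genes, and an adjusted p under 0.05 was a call. An effect over all times averages those at 6, 12 and 24 h. The CD6 to ALCAM ratio was tested by an exact permutation within times.

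Transcript GC content and length were taken from GENCODE v29 (GRCh38), whose build may differ from the table's, with 11147 tested genes matched (92.8%). For the correction, loess curves (span 0.3) of each library's deviations on GC content and then on length were subtracted. Relative depth used 6620 genes averaging under 0.3 FPKM (tolerance 0.03, log2).

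The members, the gene lists and the tests were chosen with earlier results of these data known. Named from a list were its genes called for 25 against 0 µg/ml over all times or at 24 h, or otherwise the 2 of smallest p; any other was chosen after its values were seen. The fit was tested on simulated data for all 12015 genes. At 24 h, 25 against 0 µg/ml, it called 26.6% of genes shifted by 0.25 (log2) and 76.3% of those shifted by 0.5; over all times it called 67.1% and 93.3%. Alternatives changed the pseudocount to 0.1, the filter (none, or 5 FPKM), scaling, variance trend, lane, libraries fitted, replicate block and the GC and length correction.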

Additional observations from a re-analysis of the deposited data

Results flagged for a closer look

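The CD6 difference between 25 and 0 µg/ml had opposite directions at 24 h and 12 h, at 0.19 and -0.04 on the log2 scale. The effect at 24 h less that at 12 h was 0.2242, and a test of it added after the data were seen gave an SE of 0.086 and an unadjusted p of 0.0240 (limma adjusted p = 0.346). No gene was called in that comparison by limma with the values as deposited, unlike after the GC and length correction. With the GC and length correction the difference was 0.07 (adjusted p = 0.821). The part of the single untreated 12 h library in this value was not tested.

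The ALCAM difference between 12.5 and 0 µg/ml was 0.10 at 12 h and -0.07 at 6 h. In both cases every treated library lay on the same side of the untreated ones, of which there is only 1 at 12 h. How many of all tested genes do the same was not counted, so this does not set ALCAM apart. The effect at 12 h less that at 6 h was 0.1745, and this difference was not tested.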

How the results depend on the processing

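Of 332 alternative values for 26 results (12 comparisons for each of ALCAM and CD6, and the ratio at each dose), other than those that leave out 1 library, 289 kept their direction and side of the threshold, 11 lost a call, 2 gained one and 30 changed sign. The sign changes were all of differences that did not pass the test. Causes were not tested. The CD6 rise at 24 h for 25 against 0 µg/ml stayed at 0.19 but lost its call with no filter (limma adjusted p = 0.0559), lane 4 alone (0.122), only the groups compared (0.196), without the 12 h libraries (0.0784) and with the replicate block (0.0503). It was 0.15 under median centring, 0.12 under quantile normalization, and 0.037 under the GC and length correction with or without the replicate block; the 4 other settings kept the call. Between 24 and 6 h CD6 was -0.10 (no call) with lane as a covariate and in lane 4 alone, and ALCAM was -0.13 (called) under the correction with or without the block.

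For 25 against 0 µg/ml over all times ALCAM was -0.019 under median centring, -0.020 under quantile normalization, -0.015 in lane 4 alone, -0.043 without the 12 h libraries, -0.0098 under the correction and -0.0085 with the block added. CD6 was -0.031 in lane 5 alone and -0.0068 without the 24 h libraries. At 6 h ALCAM was -0.021 in lane 5 alone and -0.0060 under the correction with or without the block, and CD6 was -0.026 in lane 5 alone. For 12.5 against 0 µg/ml ALCAM was -0.018 in lane 4 alone and -0.029 without the 12 h libraries over all times, and -0.0037 under quantile normalization at 24 h. For 25 against 12.5 µg/ml ALCAM was 0.0034 in lane 4 alone, 0.043 in lane 5 alone and 0.060 without the 24 h libraries, and CD6 was 0.025 in lane 4 alone and 0.012 without the 12 h libraries. The linear dose trend was 0.049 for ALCAM and -0.037 for CD6 in lane 5 alone, and 0.062 and -0.0053 without the 24 h libraries. Under the correction with or without the block, the CD6 effect at 24 h less that at 6 h was -0.048. Between 12 and 6 h CD6 was 0.0074 under the correction and 0.0067 with the block added. The ratio at 25 µg/ml was -0.096 without the 24 h libraries and -0.090 in lane 5 alone on the log2 scale. Over all times CD5 was -0.030 in lane 5 alone and -0.029 without the 24 h libraries, CD68 -0.038 without the 24 h libraries, and CD79A -0.023 in lane 5 alone and -0.019 without the 24 h libraries.

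With 1 library left out in turn, ALCAM for 25 against 0 µg/ml ranged from -0.043 to 0.053 over all times and from -0.26 to 0.01 at 24 h, and CD6 from -0.018 to 0.063 at 6 h and from 0.13 to 0.25 at 24 h. For 12.5 against 0 µg/ml ALCAM ranged from -0.030 to 0.058 over all times and from -0.12 to 0.15 at 24 h. For 25 against 12.5 µg/ml ALCAM ranged from -0.022 to 0.010 and CD6 from -0.020 to 0.0033, and the ALCAM dose trend from -0.036 to 0.035. Between 24 and 6 h ALCAM ranged from -0.17 to -0.082 and CD6 from -0.13 to -0.093 over all doses, and ALCAM from -0.24 to 0.030 in untreated cells. The ratio ranged from -0.021 to 0.17 at 25 µg/ml and from -0.020 to 0.14 at 12.5 µg/ml, and LAIR1 over all times from -0.030 to 0.012.

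The replicate numbers were not shown to pair libraries. Differences between duplicates correlated at -0.18 to 0.03 between doses of 1 time, and the replicate block called 1825 genes for 25 against 0 µg/ml at 24 h, against 1978 without it and 2048 with crossed numbers, a pairing added after the data were seen. It ended no call of ALCAM or CD6 but that of CD6 at 24 h. In the simulated data, 26.6% of changes of 0.25 at 24 h were called. That share is an average over all 12015 genes and need not hold for a given gene. For 25 against 0 µg/ml at 24 h the SE was 0.078 for ALCAM and 0.054 for CD6. The share for genes of such spread was not computed.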
